A study of Gallus gallus with 6 samples.

Results

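The mitochondrially encoded genes are the rows of the deposited gene table that lie on the chromosome listed as MT. They were 37 of 27656 genes: 13 messenger genes, 2 ribosomal RNA genes and 22 transfer RNA genes, chosen by chromosome and not by any measured value. They were measured by RNA-seq in ileal macrophages of broiler chickens, sorted as cells that bind KUL01, an antibody against chicken mononuclear phagocytes. All birds had been injected with LPS (lipopolysaccharide, an outer-membrane molecule of Gram-negative bacteria that triggers inflammation). The LPS group had no further treatment in the labels, and the LPS+LR21 group was also gavaged with Lactobacillus reuteri, a gut bacterium that ferments sugars to lactic acid, with 3 libraries in each group. The sources used here give no genotype, age, dose or time for either group, no uninjected group was analysed here, and nothing says whether the libraries of a group came from separate birds, so that p-values measure the spread between these libraries, which may be technical. The libraries are named by their columns, LPS1, LPS2 and LPS3 for the LPS group and LR1_2, LR3 and LR4 for the LPS+LR21 group. The sources do not say what the 2 numbers in LR1_2 stand for.

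The mitochondrial genome is a small circle of DNA held in many copies per cell. It is transcribed from both strands into long precursors, and enzymes release the messengers and ribosomal RNAs by cutting at the transfer RNAs that lie between them. Every one of its messengers encodes a core subunit of the respiratory chain or of ATP synthase, and the remaining subunits of these complexes come from nuclear genes. In mammals the mature messengers carry short poly(A) tails, by which the oligo(dT) beads used for these libraries, per the labels' protocols, can capture them, while the ND6 messenger of human cells is described as lacking such a tail.

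Library totals ranged from 31284679 counts in LR4 to 45492503 in LR1_2. By the chi-square of counts per degree of freedom, LR3 differed less from each LPS library (137.7 to 195) than from LR1_2 (444) and LR4 (291), so it stood nearer to the other group than to its own. Without LR3, 0 mitochondrial genes were called, the difference in their share of counts given below was 2.75 percentage points, and the log2 fold changes of COX3 and CYTB were 0.26 and 0.49. Summed epithelial, macrophage and fibroblast markers did not overlap between the groups, while lymphocyte and erythrocyte markers did. The 33 epithelial cell markers in the table all had a count in every library, and their summed level was 2514 to 4034 CPM (counts scaled to a common library total) in the LPS libraries and 7794 to 30552 CPM in the LPS+LR21 libraries, lowest there in LR3 and highest in LR1_2. The 26 macrophage markers summed to 43345 to 55311 CPM in the LPS libraries and 16022 to 34093 CPM in the LPS+LR21 libraries, highest there in LR3, with 24 of them counted in every library and GPNMB and MRC1 at 0 in at least 1. The 12 fibroblast and smooth muscle markers, of which PDGFRA and DES were at 0 in at least 1 library, summed to 227 to 367 CPM in the LPS libraries and 109 to 181 CPM in the LPS+LR21 libraries. The 14 lymphocyte markers, with PAX5 at 0 in at least 1 library, spanned 4115 to 6634 and 4724 to 5699.8 CPM, and the 8 erythrocyte and thrombocyte markers, 5 of them at 0 in at least 1 library, spanned 78.3 to 305 and 31.5 to 83.6 CPM. Such sums can hide their members. BLB1 in the lymphocyte list, and F13A1 and THBS1 in the erythrocyte and thrombocyte list, are not confined to those cells. Of the 13 lymphocyte markers tested between the groups, 11 were fitted above 0 (median log2 fold change 0.88) and 0 were called. The groups of 38.5% of them did not overlap, against 27.3% of the 11 tested fibroblast and smooth muscle markers and 19.4% of all tested genes. Of the 33 tested epithelial markers, 32 were fitted above 0, 12 were called as higher and 0 as lower, where 1.06% of all tested genes were called. The groups of 66.7% of them did not overlap. Of the 25 tested macrophage markers, 24 were fitted below 0, with 1 called as lower and 1 as higher. The groups of 68% of these did not overlap. The marker lists were chosen with earlier results of these data known, so these shares are no independent test. The part of these cells in the results was not tested, and fewer cells of a type cannot be told apart from less RNA per cell in such samples.

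None of the 37 mitochondrial genes passed the test between the groups. In the quasi-likelihood test of edgeR, with Benjamini-Hochberg adjustment over 20745 tested genes, all 37 members were tested, 0 were higher and 0 lower at an adjusted p under 0.05, and 0 had an unadjusted p under 0.05. Across all tested genes 1.06% were called, 0.974% as higher and 0.0819% as lower, and 12.1% had an unadjusted p under 0.05. The background itself depended on the libraries kept: 0 of all genes were called when LPS1, LPS2, LPS3, LR1_2 or LR4 was left out, and 1945 without LR3. Each such fit also had fewer libraries in a group. The smallest adjusted p over all tested genes was 0.0344 in the full fit (edgeR), so every call lay near the threshold of 0.05. DESeq2 called 1361 of all genes and 0 of the 30 members to which it gave an adjusted p, and gave none for the other 7, all transfer RNA genes. The members' median log2 fold change (LPS+LR21 against LPS) was -0.03, against -0.14 over all tested genes, and the median size of the change regardless of sign was 0.14 for the members and 0.63 over all tested genes. These sizes are not matched for abundance. The median within-group SD of log2 CPM was 0.815 over all tested genes and 0.374 over those with a mean of at least 100 CPM. The 2 sizes therefore do not show that the members responded less than genes of like abundance. Among the 13 messengers the fitted log2 fold changes ran from -0.21 for COX2 to 0.33 for CYTB. Their 95% confidence intervals together spanned -1.16 to 1.14, so the p-values do not show equal levels.

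The groups did not overlap for 4 of the 37 members in FPKM (fragments scaled to gene length and library total), 10.8% of them, where 19.4% of all tested genes had groups that did not overlap. These were COX3 and CYTB, with all LPS+LR21 libraries above all LPS libraries, and 2 transfer RNA genes with all LPS+LR21 libraries below. FPKM was recomputed for all libraries on the scale of the deposited LPS values, which puts genes of different length on a common scale. Whether such values compare levels between short and long genes was not tested. FPKM uses library totals and not the scaling of the test, under which the groups of COX3 overlap, as given below. The factor of that scaling was 1.19 for LR4 and at most 1.02 for the other libraries. LR4 therefore stands higher against them in FPKM than in the test. Which library is highest in FPKM can change under the scaling of the test.

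**Figure D1:**
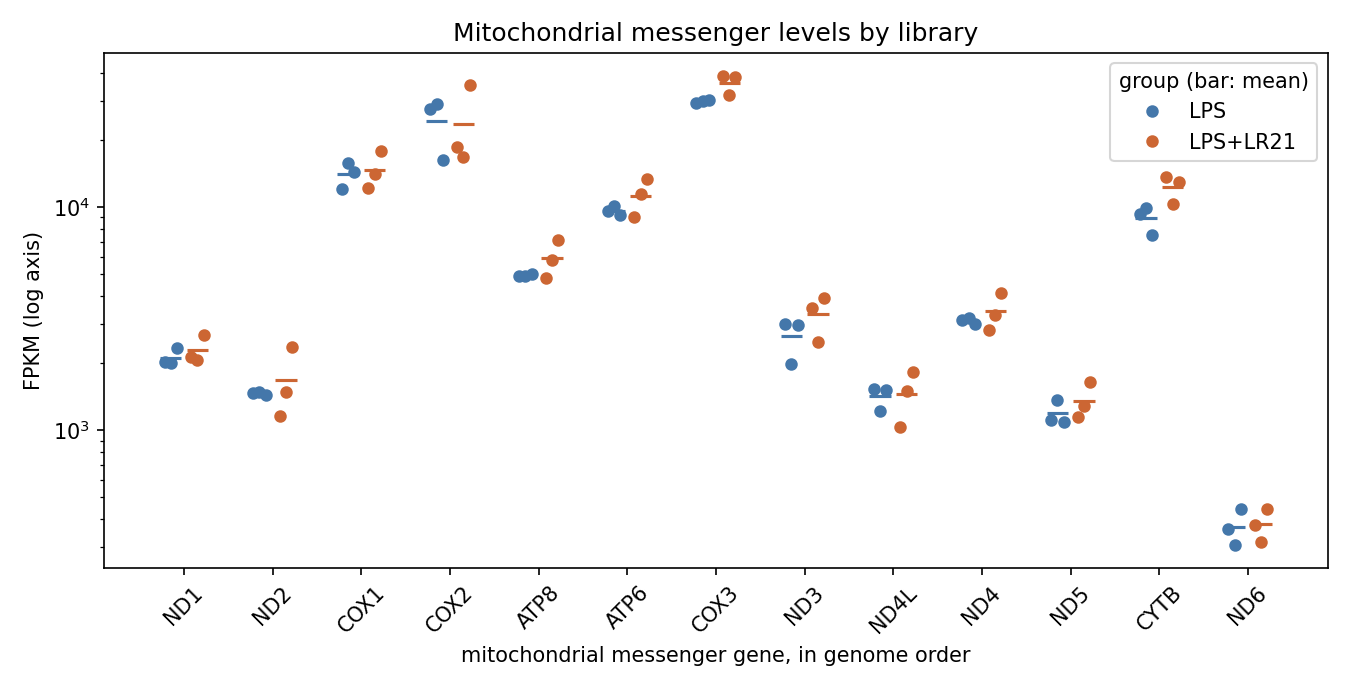
FPKM (log axis) of the 13 mitochondrial messengers in genome order, with a point for each library and a bar at the mean of the 3 libraries of each group. In FPKM, which uses library totals, COX3 and CYTB are the messengers whose groups do not overlap, and 11 of the 13 have their highest value in LR4. The scaling of the test lowers LR4 against the other libraries.

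Mitochondrial genes took 13.2%, 14.0% and 12.1% of all counts in LPS1, LPS2 and LPS3 and 14.0%, 13.04% and 17.7% in LR1_2, LR3 and LR4. LR4 stood above the other 5 libraries, which the groups otherwise shared between them. The means were 13.1% ± 0.969 and 14.9% ± 2.49 (SD, n = 3 each), and the difference of 1.81 percentage points did not exceed the spread between libraries (two-sided exact permutation p = 0.5, where 3 against 3 cannot give a value below 0.1). Without LR4 the difference was 0.401 points. The 95% Wilson intervals of the single shares were at most 0.0134 points to either side, which covers counting error only. Messengers made up 89.5% to 92.2% of the mitochondrial counts, ribosomal RNA 7.59% to 10.2% and transfer RNA 0.222% to 0.331%. By mean FPKM over the 6 libraries, 6 of the 10 highest genes of the whole table and 12 of the 20 highest were mitochondrial, and the mitochondrial genes held 26.7% to 37.2% of a library's summed FPKM.

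The 3 messengers of complex IV, cytochrome c oxidase, which passes electrons to oxygen, were the most abundant. COX1 encodes the subunit that holds the oxygen-reducing centre (ENSGALG00010000017, MT, 5419 to 6969, plus strand). The names COX1 and COX2 are also used for the prostaglandin synthases, which are nuclear genes and not meant here. COX1 had 12138, 15726 and 14343 FPKM in LPS1, LPS2 and LPS3 and 12181, 14083 and 17803 FPKM in LR1_2, LR3 and LR4. The groups overlapped throughout, with a log2 fold change of -0.08 ± 0.38 (SE; 95% interval -0.93 to 0.77). COX3, a membrane subunit of the oxidase (ENSGALG00010000024, MT, 8700 to 9483, plus strand), had the highest mean FPKM of any gene in the table. It had 29471, 30004 and 30296 FPKM in LPS1, LPS2 and LPS3 and 38611, 31865 and 38211 FPKM in LR1_2, LR3 and LR4. The LPS libraries lay close together and below all 3 LPS+LR21 libraries, of which LR3 was nearest to them. The fitted log2 fold change of 0.14 ± 0.38 (SE) did not pass (adjusted p = 0.960, edgeR). With library totals in place of TMM, the scaling used in the test, it was 0.28. FPKM also uses library totals, and TMM factors of 0.928 for LPS3 and 1.19 for LR4 put LR4 below LPS3. The groups of COX3 therefore overlap under TMM.

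COX2, the subunit that receives electrons from cytochrome c (ENSGALG00010000020, MT, 7108 to 7791, plus strand), varied most among the messengers, and its variation did not follow the groups. It had 27599, 28913 and 16332 FPKM in LPS1, LPS2 and LPS3 and 18662, 16734 and 35493 FPKM in LR1_2, LR3 and LR4. LPS1, LPS2 and LR4 were high and LPS3, LR1_2 and LR3 low, with a ratio of 2.17 between the highest and the lowest library. The log2 fold change was -0.21 ± 0.42 (SE; 95% interval -1.16 to 0.74). Per length, COX2 stood at 2.27, 1.84 and 1.14 times the level of COX1 in the LPS libraries and at 1.53, 1.19 and 1.99 times in LR1_2, LR3 and LR4. This ratio does not depend on the scaling between libraries, and LPS3 and LR3 were again the lowest.

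The transfer RNA genes on both sides of COX2 had the same 3 highest libraries as COX2, though not in the same order. The transfer RNA gene just before COX2, called tRNA 13 here by its order along the genome (ENSGALG00010000019, MT, 7038 to 7106, plus strand), had 230.1, 176 and 70.7 FPKM in LPS1, LPS2 and LPS3 and 56.1, 40.1 and 271 FPKM in LR1_2, LR3 and LR4. Its counts were 845, 612 and 287 in the LPS libraries and 231, 148 and 767 in LR1_2, LR3 and LR4, so that the same 3 libraries were high as for COX2, with a ratio of 6.75 between the extremes. The transfer RNA gene just after COX2, tRNA 14 (ENSGALG00010000021, MT, 7793 to 7860, plus strand), had 306, 236 and 173 FPKM in the LPS libraries, against 158, 207 and 363 FPKM in LR1_2, LR3 and LR4. LPS1, LPS2 and LR4 were the 3 highest here too. In COX1 upstream and in ATP8 downstream these 3 libraries were no longer the 3 highest. The cause of this split was not tested. Leaving out LR4 moved the log2 fold change of tRNA 13 from -0.62 to -1.66, with an adjusted p of 0.329 in edgeR.

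**Figure D2:**
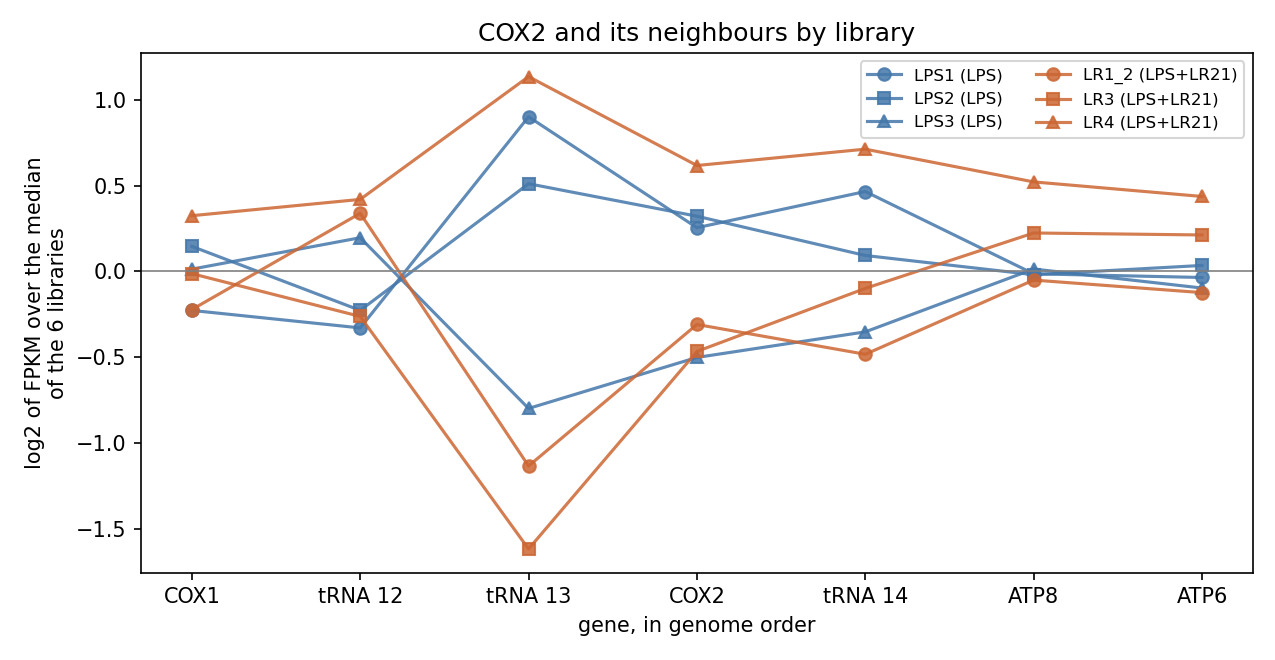
Level of COX2 and its neighbours in genome order, as the log2 of a library's FPKM over the median of the 6 libraries, with a line for each library. At tRNA 13, COX2 and tRNA 14 LPS1, LPS2 and LR4 are the 3 highest libraries, and at COX1 and ATP8 they are not.

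CYTB encodes cytochrome b, the core of complex III, which moves electrons from ubiquinol to cytochrome c and is the only subunit of that complex with a mitochondrial gene (ENSGALG00010000034, MT, 13671 to 14813, plus strand). It had 9377, 9935 and 7480.5 FPKM in LPS1, LPS2 and LPS3 and 13724, 10329 and 12922 FPKM in LR1_2, LR3 and LR4. Every LPS+LR21 library was above every LPS library, with LR3 only slightly above LPS2. The means were 8931 ± 1287 and 12325 ± 1774 FPKM (SD, n = 3 each). Its log2 fold change of 0.33 ± 0.36 (SE; 95% interval -0.48 to 1.14) was the largest among the messengers and did not pass (adjusted p = 0.865, edgeR). It lay between 0.23 and 0.49 when each library was left out in turn, the lowest being without LR1_2, and was 0.46 with library totals in place of TMM.

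The 7 mitochondrial messengers of complex I, the NADH dehydrogenase where most electrons enter the chain, had mean levels below those of complex IV, and their groups all overlapped. ND4 and ND5 encode proton-pumping subunits of the membrane arm. ND4 (ENSGALG00010000029, MT, 10264 to 11641, plus strand) had 3134, 3182 and 2985 FPKM in LPS1, LPS2 and LPS3 and 2830.4, 3274 and 4145 FPKM in LR1_2, LR3 and LR4. ND5 (ENSGALG00010000033, MT, 11849 to 13666, plus strand) had 1114, 1373 and 1091 FPKM in the LPS libraries, against 1148, 1281 and 1641 FPKM in LR1_2, LR3 and LR4. In both, LR4 was the highest in FPKM and the other LPS+LR21 libraries lay within or next to the LPS range. ND1, beside the quinone-binding site (ENSGALG00010000007, MT, 2824 to 3798, plus strand), had 2016, 2010.0 and 2334 FPKM in the LPS libraries, against 2127, 2074 and 2682 FPKM in LR1_2, LR3 and LR4. ND2, another membrane-arm subunit (ENSGALG00010000011, MT, 4015 to 5053, plus strand), had 1473, 1488 and 1447 FPKM in the LPS libraries, against 1161, 1485 and 2372 FPKM in LR1_2, LR3 and LR4. The LPS libraries of ND2 hardly differed (1469 ± 21.1 FPKM, SD, n = 3), whereas LR1_2 lay below them, LR4 above them and LR3 among them.

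The short membrane subunits ND3 and ND4L and the subunit ND6 followed no group order either. ND3 (ENSGALG00010000026, MT, 9553 to 9904, plus strand) had 3002, 1990.5 and 2958 FPKM in LPS1, LPS2 and LPS3 and 3526, 2501 and 3938 FPKM in LR1_2, LR3 and LR4, lowest in LPS2. ND4L (ENSGALG00010000028, MT, 9974 to 10270, plus strand) had 1538, 1218 and 1519.7 FPKM in the LPS libraries, against 1039, 1500.1 and 1817 FPKM in LR1_2, LR3 and LR4, lowest in LR1_2. ND6, the 1 messenger listed on the minus strand (ENSGALG00010000037, MT, 14962 to 15483), had 359.5, 306 and 443 FPKM in the LPS libraries, against 376, 316 and 445 FPKM in LR1_2, LR3 and LR4. It was the least abundant messenger, and the mean FPKM of COX3 was 88.4 times that of ND6. The log2 fold changes of the 7 genes lay between -0.12 for ND4L and 0.17 for ND3, each smaller than its standard error. Adjusted p lay above 0.94 for all of them (edgeR).

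ATP8 and ATP6 encode membrane subunits of ATP synthase, or complex V, and their reading frames share 10 bases. ATP6 lines the channel through which protons drive the enzyme (ENSGALG00010000023, MT, 8017 to 8700, plus strand). It had 9619, 10099 and 9217 FPKM in LPS1, LPS2 and LPS3 and 9048, 11423 and 13348 FPKM in LR1_2, LR3 and LR4. ATP8 (ENSGALG00010000022, MT, 7862 to 8026, plus strand) had 4926, 4908 and 5022 FPKM in the LPS libraries, against 4802, 5809.6 and 7143 FPKM in LR1_2, LR3 and LR4. For both, LR3 and LR4 were above the LPS range and LR1_2 below it. The ratio of ATP6 to ATP8 per length held between 1.84 and 2.06 in all 6 libraries. The log2 fold changes were 0.08 ± 0.34 for ATP6 and 0.11 ± 0.30 for ATP8 (SE). Reads in shared bases, which ATP6 and COX3 (1 base) and ND4L and ND4 (7 bases) also have, can be counted for either gene, and nuclear copies of mitochondrial DNA could take or give reads, so that close ratios between neighbours are uncertain.

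**Figure D3:**
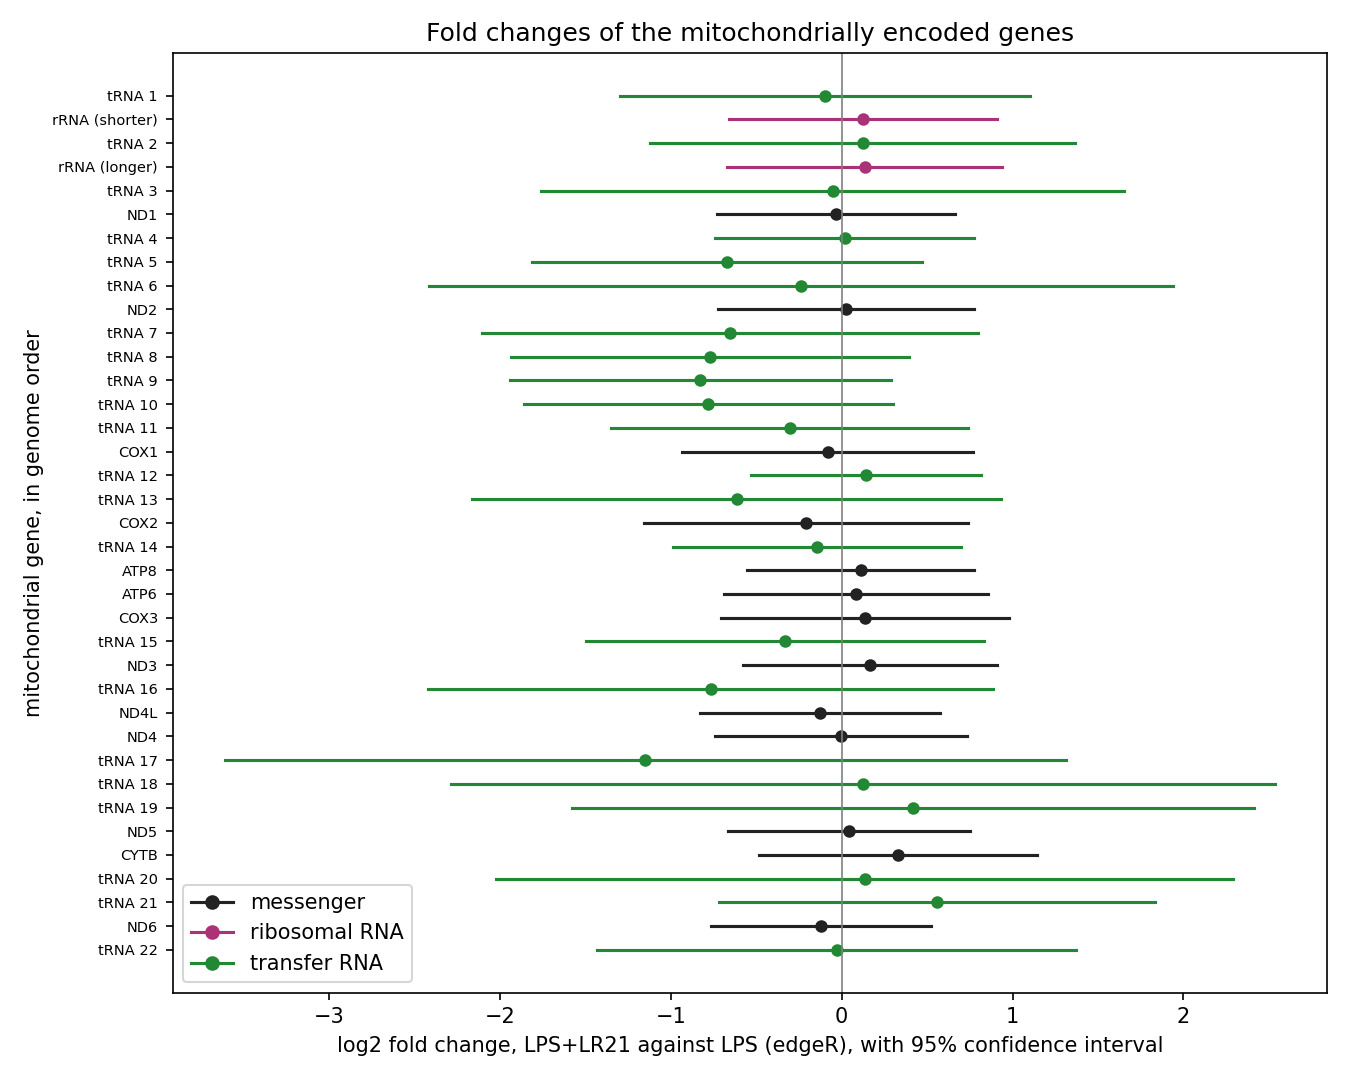
Log2 fold change (LPS+LR21 against LPS, edgeR) of the 37 mitochondrial genes in genome order, with a point for the estimate and a line for its 95% confidence interval. All 37 intervals include 0, and the widest belong to transfer RNA genes, reaching from -3.61 to 2.54.

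Set against each other within a library, the messengers gave a measure free of the scaling between libraries. CYTB took 11.8%, 11.5% and 10.1% of the mitochondrial messenger counts in LPS1, LPS2 and LPS3 and 16.4%, 13.01% and 12.02% in LR1_2, LR3 and LR4. Every share in the LPS+LR21 group was above every share in the LPS group, and the means were 11.2% ± 0.920 and 13.8% ± 2.30 (SD, n = 3 each). The difference of 2.64 points had a two-sided exact permutation p of 0.1, the smallest that 3 against 3 can give, and an adjusted p of 0.945 over the 13 messengers. Without LR1_2 it was 1.34 points, so that this library carried much of its size. CYTB was the only 1 of the 13 messengers whose shares did not overlap between the groups. COX1, COX2 and COX3 each varied more within the groups than between them, with shares of 19.8% to 26.3%, 12.6% to 20.9% and 23.9% to 31.7% over the 6 libraries.

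By complex, the 3 messengers of complex IV together took 67.2%, 68.8% and 67.7% of the messenger counts in the LPS libraries and 64.8%, 64.2% and 66.6% in LR1_2, LR3 and LR4. These shares did not overlap (67.9% ± 0.816 and 65.2% ± 1.26, SD, n = 3 each; two-sided exact permutation p = 0.1, adjusted p = 0.2 over the 4 complexes). Shares taken from FPKM in place of counts did overlap. The shares of the 4 complexes make up the whole of a library's messenger counts, so they are not independent. The difference was -2.71 points for complex IV and 2.64 points for complex III, whose only messenger here is CYTB. A lower share is not a lower level. The summed CPM of the complex IV messengers averaged 81107 for LPS and 88262 for LPS+LR21, with groups that overlapped. Complex I took 11.5% to 13.7% and complex V 7.30% to 9.67% of the messenger counts over the 6 libraries. Their groups overlapped, with exact permutation p-values of 0.8 each.

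The 2 ribosomal RNA genes encode the RNA of the mitochondrial ribosome, which translates these messengers. The shorter gene (ENSGALG00010000003, MT, 70 to 1045, plus strand) had 2402, 1663 and 2469 FPKM in LPS1, LPS2 and LPS3 and 2729, 1875 and 3394 FPKM in LR1_2, LR3 and LR4. The longer gene (ENSGALG00010000005, MT, 1119 to 2740, plus strand) had 4916, 3993 and 3006 FPKM in the LPS libraries, against 4882, 4129.7 and 5442 FPKM in LR1_2, LR3 and LR4. The groups overlapped for both, and LR4 was highest in FPKM in both. Per length the longer gene stood at 2.05, 2.40 and 1.22 times the shorter in the LPS libraries and at 1.79, 2.20 and 1.60 times in LR1_2, LR3 and LR4. LPS3 had the lowest ratio, and the groups did not differ beyond their spread (1.89 ± 0.608 and 1.87 ± 0.307, SD, n = 3 each). The log2 fold changes were 0.12 ± 0.35 and 0.14 ± 0.36 (SE). Libraries made with oligo(dT) beads hold what ribosomal RNA the beads retained, so these values are no measure of its amount in the cell.

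The 22 transfer RNA genes, which carry amino acids to that ribosome, were low and uneven in these libraries. As for ribosomal RNA, their values hold what the beads retained and are no measure of transfer RNA in the cell. Whether the reads came from mature transfer RNA or from precursors was not tested. The 22 genes held 0.0293% to 0.0463% of all counts, with 15 to 12645 counts per gene and library, and 19 of them reached 100 counts in at least 1 library. The table gives them no names, so they are numbered by their order along the genome. tRNA 12 (ENSGALG00010000018, MT, 6961 to 7035, minus strand) stood apart, with 1779, 1909.8 and 2562 FPKM in LPS1, LPS2 and LPS3 and 2828, 1864 and 2991 FPKM in LR1_2, LR3 and LR4. The other 21 had mean levels of 10.3 to 240.4 FPKM. tRNA 12 took 55.4%, 60.5% and 63.1% of the transfer RNA counts in the LPS libraries and 76.1%, 62.5% and 63.5% in LR1_2, LR3 and LR4. It shares 9 bases, the first of its listed span, with the end of COX1 on the opposite strand. The sources used here do not say whether the counting used strand, so reads of COX1 cannot be told apart from those of tRNA 12. For ND6 and the other transfer RNA genes on the minus strand, reads of the opposite strand cannot be told apart either. Its groups overlapped.

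The transfer RNA genes between ND2 and COX1 had their lowest values in LR1_2. tRNA 9, the member with the smallest p (ENSGALG00010000014, MT, 5208 to 5280, minus strand), had 147, 116 and 196 FPKM in LPS1, LPS2 and LPS3 and 40.4, 106 and 146 FPKM in LR1_2, LR3 and LR4. LR1_2 lay far below the rest, while LR3 and LR4 were below or within the LPS range. Its log2 fold change was -0.83 ± 0.50 (SE) with an adjusted p of 0.623 (edgeR), and it was -0.47 to -1.04 when each library was left out in turn. In the same stretch, tRNA 7 (ENSGALG00010000012, MT, 5054 to 5129, plus strand) had 52.6, 51.0 and 51.7 FPKM in the LPS libraries, against 13.7, 32.2 and 66.9 FPKM in LR1_2, LR3 and LR4. The 3 LPS values were nearly equal, and the 3 LPS+LR21 values were spread on both sides of them. tRNA 8 (ENSGALG00010000013), tRNA 10 (ENSGALG00010000015) and tRNA 11 (ENSGALG00010000016) had 31.6, 42.4 and 51.7 FPKM in LR1_2, the lowest value of each. Their LPS means were 117, 123 and 84.5 FPKM. LR3 had 79.5, 82.8 and 77.2 FPKM and LR4 122, 116 and 101 FPKM, so LR4 lay within the range of the LPS libraries for all 3 genes. ND2, next to them, was also lowest in LR1_2, as given above.

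The transfer RNA genes between ND4 and ND5 varied in another way. tRNA 17 (ENSGALG00010000030, MT, 11642 to 11710, plus strand) had 27.1 FPKM in LPS3 and 4.18 to 9.54 FPKM in the other 5 libraries. tRNA 18 (ENSGALG00010000031) and tRNA 19 (ENSGALG00010000032) had 24.6 and 24.1 FPKM in LPS3 and 31.7 and 41.1 FPKM in LR1_2, and at most 11.998 and 20.5 FPKM in the remaining libraries. LPS3 and LR1_2, which belong to different groups, were the high libraries for both. Counts here were 15 to 175 per library, so counting error adds to these differences.

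The groups did not overlap for tRNA 5 and tRNA 16. tRNA 5 (ENSGALG00010000009, MT, 3876 to 3946, minus strand) had 57.2, 68.9 and 64.5 FPKM in LPS1, LPS2 and LPS3 and 34.0, 43.5 and 54.9 FPKM in LR1_2, LR3 and LR4. tRNA 16 (ENSGALG00010000027, MT, 9906 to 9973, plus strand) had 29.0, 22.4 and 32.0 FPKM in the LPS libraries, against 20.9, 12.9 and 20.7 FPKM in LR1_2, LR3 and LR4. In both the LPS+LR21 values were the lower ones by a narrow gap, and their log2 fold changes of -0.67 ± 0.51 and -0.77 ± 0.74 (SE) did not pass. tRNA 21 (ENSGALG00010000036) had the highest log2 fold change of the members, 0.56 ± 0.57 (SE; adjusted p = 0.85, edgeR), and its groups overlapped. It had 48.0, 26.8 and 69.0 FPKM in the LPS libraries, against 51.4, 92.0 and 91.8 FPKM in LR1_2, LR3 and LR4. The groups of tRNA 1, tRNA 2, tRNA 4, tRNA 15 and tRNA 22 overlapped too, with log2 fold changes between -0.33 and 0.12. Of the 22 transfer RNA genes, 10 had their highest FPKM in LPS3 and 7 in LR4. The lowest FPKM fell in LR1_2 for 7, in LPS2 for 6, in LR3 for 6 and in LPS1 for 3.

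**Figure D4:**
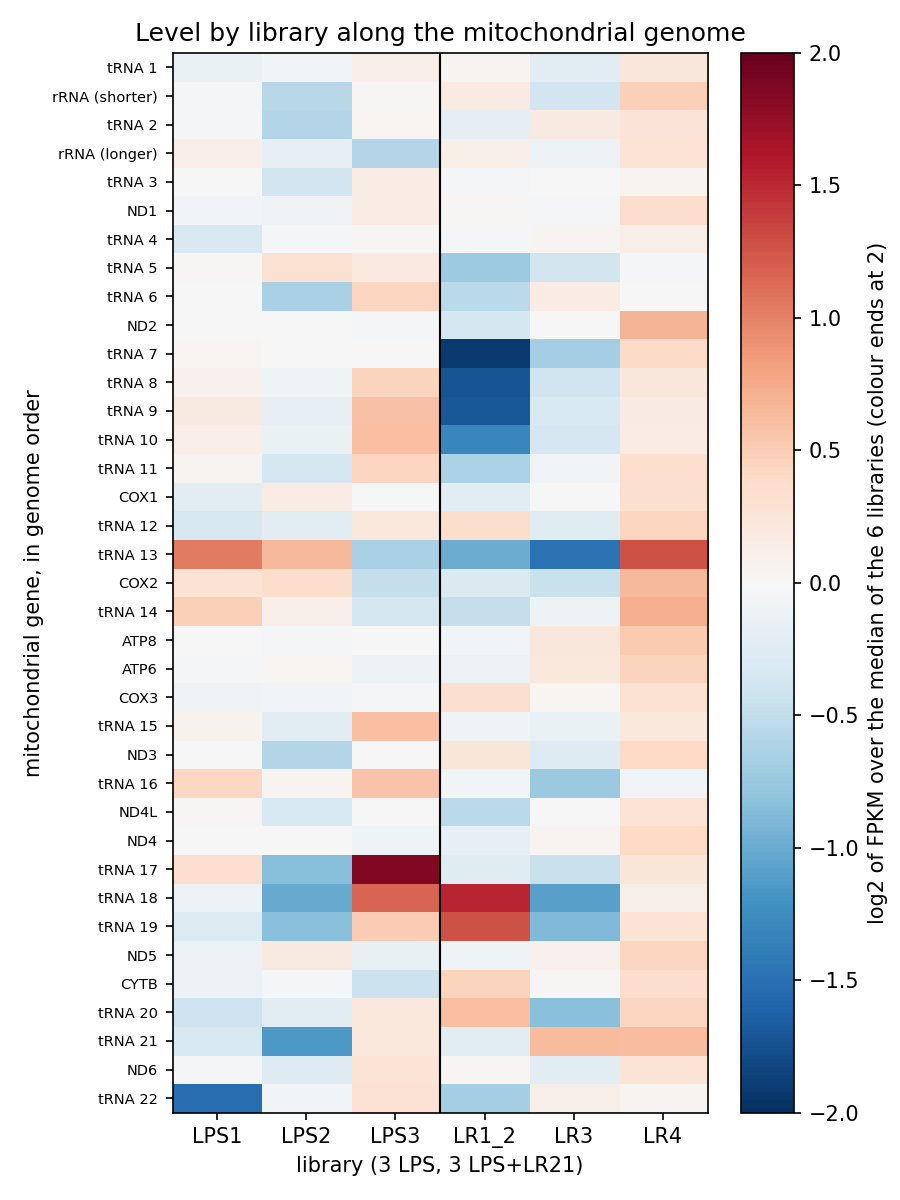
Level of each mitochondrial gene (rows, in genome order) in each library (columns), as the log2 of FPKM over the median of the 6 libraries, with the line between the LPS and LPS+LR21 libraries. Blocks of neighbouring rows share a colour within single libraries, as from tRNA 7 to tRNA 11 in LR1_2 and from tRNA 17 to tRNA 19 in LPS3.

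Within the groups, each messenger varied less than most tested genes, though not each less than most of the genes with at least 100 CPM. The within-group SD of log2 CPM had a median of 0.227 over the 13 messengers and 0.527 over the 22 transfer RNA genes, against 0.815 over all tested genes and 0.374 over the 1585 tested genes with a mean of at least 100 CPM. COX3 had the smallest SD (0.111) and COX2 the largest (0.526) among the messengers. They stood at percentiles 2.59 and 66.6 of the SD of those 1585 genes, a set not matched to the messengers in abundance.

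The nuclear genes of oxidative phosphorylation stood higher in the LPS+LR21 libraries as a sum. The 59 such genes in the table, of 83 listed, which include SDHA, SDHB and SDHD of complex II and the electron carrier CYCS, summed to 7851, 6864 and 8440.5 CPM in LPS1, LPS2 and LPS3 and to 14938, 10423 and 11953 CPM in LR1_2, LR3 and LR4. These sums did not overlap, LR1_2 was highest and LR3 nearest to the LPS libraries, which is the order of the epithelial marker sums among the 3 LPS+LR21 libraries. Among the LPS libraries the orders differed, with the nuclear sum highest in LPS3, where the epithelial marker sum was lowest (2514 CPM). A link between these sums was not tested. None of the 59 passed the test, 56 were fitted above 0 (median log2 fold change 0.60, against -0.14 over all tested genes), and the groups of 49 did not overlap, 83.1% against 19.4% of all tested genes. The nuclear gene lists, like the marker lists, were chosen with earlier results of these data known. UQCRH, a small subunit of complex III, had 47.1 ± 5.75 FPKM in the LPS libraries, against 107 ± 34.1 FPKM in LPS+LR21 (SD, n = 3 each; adjusted p = 0.179, edgeR). Its deposited symbol is UQCRHL, matched to UQCRH through RefSeq. NDUFAB1, the acyl carrier protein of complex I, and NDUFA5, another complex I subunit, did not pass either, with fitted log2 fold changes of 0.90 and 0.96.

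Mitochondrial messenger counts were 15.1, 18.8 and 13.1 times the nuclear counts of this list in LPS1, LPS2 and LPS3 and 8.39, 11.4 and 13.5 times in LR1_2, LR3 and LR4. LR4 lay within the LPS range and the other LPS+LR21 libraries below it. The mean ratio was 15.7 ± 2.88 and 11.1 ± 2.56 (SD, n = 3 each). The two-sided exact permutation p was 0.2, where 3 against 3 cannot give a value below 0.1, so it does not show equal ratios. For complex I, 7 mitochondrial against 31 nuclear genes, the ratios were 5.81, 7.10 and 5.65 in the LPS libraries and 2.90, 4.65 and 5.46 in LR1_2, LR3 and LR4, with no overlap (exact permutation p = 0.1, adjusted p = 0.267 over 4 complexes). Nuclear genes were assigned to complexes by symbol prefix, so NDUFA4, since reassigned to complex IV, counted under complex I. For complex V the ratios were 6.04 to 8.10 in the LPS libraries and 2.92 to 6.07 in the LPS+LR21 libraries, for complex IV 47.7 to 81.1 and 28.2 to 49.1, and for complex III 9.73 to 15.3 and 9.77 to 10.7. These 3 overlapped. The part of epithelial transcripts in these ratios was not tested.

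**Figure D5:**
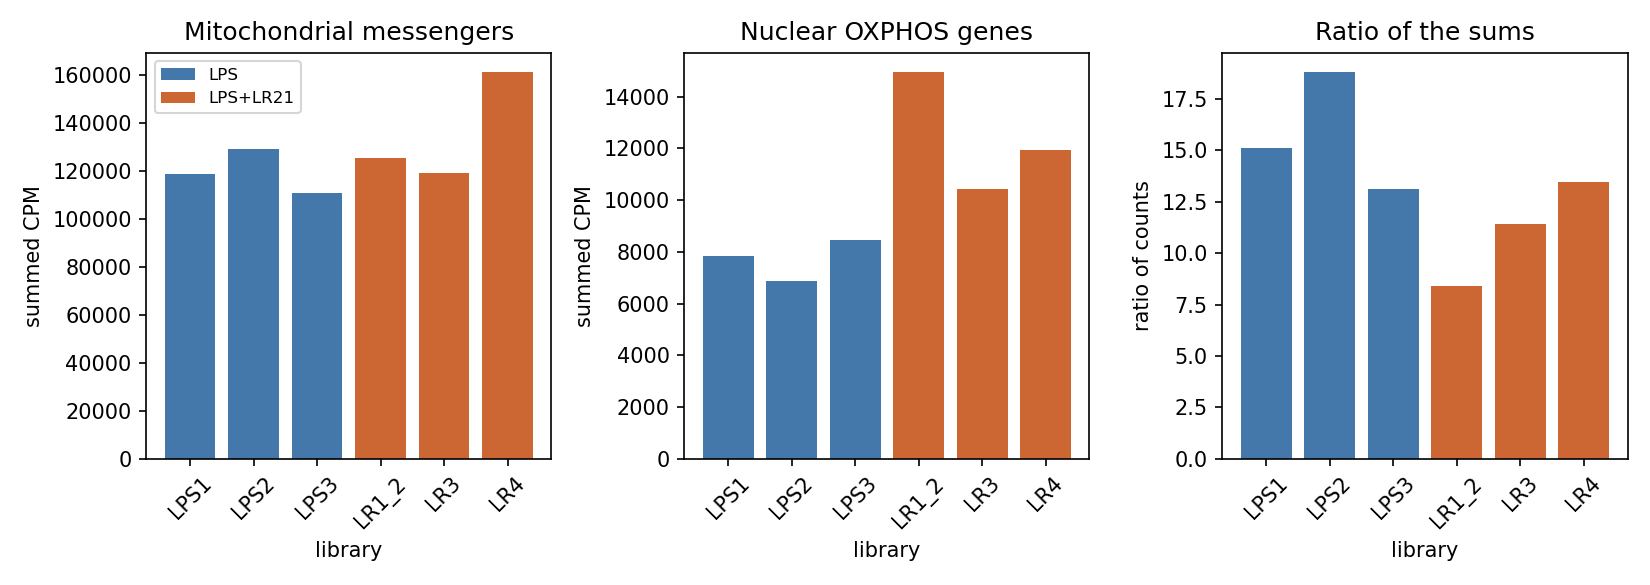
Summed CPM of the 13 mitochondrial messengers, summed CPM of the 59 nuclear oxidative phosphorylation genes and the ratio of their counts, with a bar for each library and colours for the group. The mitochondrial sums overlap between the groups, from 110675 CPM in LPS3 to 161007 CPM in LR4, while the nuclear sums do not.

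Nuclear genes that maintain, transcribe, process and translate the mitochondrial genome gave no call. In each of the following lists 0 members passed in either direction. The 19 genes of mitochondrial transcription and DNA maintenance had a median log2 fold change of 0.05 and included DGUOK, a kinase that supplies DNA precursors (10.3 ± 4.77 FPKM in the LPS and 33.4 ± 14.2 FPKM in the LPS+LR21 libraries; adjusted p = 0.136, edgeR), and TFAM, the factor that packages the genome and starts its transcription (2.82 ± 1.22 and 6.78 ± 0.919 FPKM; adjusted p = 0.352; SD, n = 3 each). Both had groups that did not overlap, while MTERF2, of the mitochondrial transcription termination factor family, had groups that did (log2 fold change 1.80, adjusted p = 0.289, edgeR). The groups of 6 of the 19 did not overlap, 31.6% against 19.4% of all tested genes. The 29 genes of mitochondrial RNA processing and stability had a median of -0.02, and the groups of 17.2% did not overlap. Their smallest p-values belonged to MRM2, a methyltransferase of mitochondrial ribosomal RNA, with a log2 fold change of 0.90, and to the RNA-binding genes FASTKD3 and FASTKD5 with -0.94 and -0.58. The 29 mitochondrial translation factor genes had a median of 0.21, led by MTG1, a GTPase of ribosome assembly, IARS2, an isoleucine transfer RNA synthetase, and GFM2, a ribosome recycling factor, at 0.74, 0.65 and 0.80. The groups of 24.1% of these 29 genes did not overlap.

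The 70 mitochondrial ribosomal protein genes had a median log2 fold change of 0.27 with 60 fitted above 0, and the groups of 35.7% did not overlap, against 19.4% of all tested genes. DAP3, a protein of the small ribosomal subunit, had 1.20 (adjusted p = 0.157, edgeR). MRPS36, in the list by its symbol but since described as a part of the oxoglutarate dehydrogenase complex, had 1.14. MRPL12, of the large subunit, had 6.60 ± 7.31 and 27.8 ± 9.78 FPKM (SD, n = 3 each). The 28 genes of mitochondrial biogenesis, dynamics and mitophagy had a median of 0.36, and the groups of 14 (50%) did not overlap. BNIP3, a receptor for the removal of mitochondria, had 78.6 ± 15.3 FPKM in the LPS libraries, against 39.8 ± 7.79 FPKM in LPS+LR21 (SD, n = 3 each; log2 fold change -1.11, adjusted p = 0.146, edgeR). OMA1, an inner membrane protease, and ESRRG, a nuclear receptor for metabolic genes, had 1.07 and 1.00. None of these passed, and with library totals in place of TMM the median of all tested genes moved up by 0.15.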

How the data were processed

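RNA-seq of sorted ileal macrophages was measured in 6 libraries. The deposited table holds whole-number counts per gene, unnormalized, per the file headers. It also holds FPKM computed by the authors. Tools listed per the submitters' processing notes, with no role or order, are HISAT2 2.0.4, StringTie 1.3.4d, edgeR and cutadapt 1.9; build, annotation release and strand setting are not given in the sources used here. Start and end of all 37 mitochondrial rows equal those of RefSeq GRCg7b, which also matched 8 list symbols through synonyms. The 3 FPKM columns of LPS+LR21, which match no single sample, were not used; FPKM was recomputed from counts, column totals and the lengths implied by the deposited LPS columns (within 3.10% of the deposited values for mitochondrial genes). Of the LPS+LR21 columns, LR1_2 and LR4 match no single title, so all 3 serve as replicates without identity. Every pair of libraries differed beyond sampling noise (lowest chi-square per degree of freedom 97.0).

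edgeR 4.0.16 (R 4.3.3) with filterByExpr, TMM (factors 0.928 to 1.19), glmQLFit and glmQLFTest compared the groups over 20745 genes without covariates. Tests are two-sided, adjusted by Benjamini-Hochberg, with a threshold of 0.05; the SE is the fold change over the square root of F. The pipeline was tested on simulated data, where every gene had the dispersion common to all tested genes. There no unchanged gene was called, only some of the larger fold changes were recovered and none of the smaller ones. Even the smaller ones exceeded in size every log2 fold change fitted for a mitochondrial gene. A missing call thus says little for genes that vary as much. The messengers varied less (median within-group SD of log2 CPM 0.227, against 0.815 over all tested genes). The simulation therefore cannot tell how often their changes are missed. Single values per library were compared by exact permutation over libraries. Alternatives used DESeq2 1.42.0, limma 3.58.1, other scalings, filters, pseudocounts of 0.1 and 1, and each library left out. Named genes were all messenger and ribosomal RNA members and transfer RNA members of at least 100 counts in a library. Per nuclear list they were the 3 of smallest p with a mean of at least 1 FPKM. Which transfer RNA genes were described at length or as a block, such as tRNA 17 to 19, was chosen after their values were seen. Members and lists were chosen with earlier results of these data known.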

Additional observations from a re-analysis of the deposited data

How the results depend on the processing

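No mitochondrial gene was called under any of the 14 alternatives, though DESeq2 gave 7 of them no adjusted p; the lowest adjusted p of a member was 0.185 (limma-voom with library quality weights, where 2 members had an unadjusted p under 0.05). The count of all called genes, 219, was 442 at a mean of at least 5 FPKM, 1361 with DESeq2, 441 and 330 with limma-trend on log2(FPKM + 0.1) and log2(FPKM + 1), 1956 with library quality weights, and 0 to 1945 when each library was left out. The share of these calls that were higher was 92.2%, against 77.1% at 5 FPKM, 73.6% with DESeq2, 54.2% with quality weights and 55.8% without LR3. The difference in mitochondrial share kept its sign under every alternative, at 0.401 to 2.75 points with a library left out. The complex shares kept their sign except complex I (-0.714 to 0.275 points with a library left out) and complex V (-0.308 to 0.874).

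Fitted values near 0 changed sign in 28 of 296 gene and setting pairs; none was called, and the cause was not tested beyond the shift of all genes by 0.15 with library totals. With library totals the values were 0.05 for ENSGALG00010000002, 0.09 for ENSGALG00010000006, 0.11 for ND1, 0.06 for COX1, 0.03 for ENSGALG00010000021, 0.03 for ND4L, 0.14 for ND4, 0.04 for ND6 and 0.11 for ENSGALG00010000038. With limma-trend (pseudocounts 0.1 and 1) they were 0.04 and 0.04 for ENSGALG00010000002, 0.10 and 0.10 for ENSGALG00010000006, 0.11 and 0.11 for ND1, 0.05 and 0.05 for COX1, 0.12 and 0.12 for ND4, 0.04 and 0.04 for ND6, and 0.25 and 0.24 for ENSGALG00010000038. ND4 had 0.02 at 5 FPKM and 0.02 with DESeq2. With quality weights ENSGALG00010000008 had -0.01, ND2 -0.07 and ATP6 -0.00.

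With each library left out, ranges that crossed 0 were -0.15 to 0.05 for ENSGALG00010000002, -0.06 to 0.36 for ENSGALG00010000003, -0.07 to 0.26 for ENSGALG00010000004, -0.01 to 0.33 for ENSGALG00010000005, -0.21 to 0.10 for ENSGALG00010000006, -0.10 to 0.07 for ND1, -0.07 to 0.16 for ENSGALG00010000008, -0.49 to 0.07 for ENSGALG00010000010, -0.11 to 0.21 for ND2, -0.17 to 0.02 for COX1, -0.41 to 0.01 for COX2, -0.33 to 0.09 for ENSGALG00010000021, -0.02 to 0.38 for ND3, -0.25 to 0.06 for ND4L, -0.01 to 0.10 for ND4, -0.90 to 0.94 for ENSGALG00010000031, -0.33 to 0.90 for ENSGALG00010000032, -0.19 to 0.53 for ENSGALG00010000035, -0.26 to 0.06 for ND6, -0.40 to 0.38 for ENSGALG00010000038. No paired analysis was possible because the columns LR1_2 and LR4 match no single numbered title, so that the groups share at most the number 3. Messengers had 8070 counts or more per library, while transfer RNA genes with as few as 15 counts have wide intervals.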
